A study of Mus musculus with 6 samples.

Results

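Glucose uptake and glycolysis were followed through 10 genes, in pathway order: the glucose transporters Slc2a1 and Slc2a3, the hexokinases Hk1 and Hk2, the phosphofructokinases Pfkp and Pfkl, the aldolase Aldoa, the phosphoglycerate kinase Pgk1, the pyruvate kinase Pkm and the lactate dehydrogenase Ldha. They were selected by gene symbol in the array's annotation. All 10 were found among the 19494 genes measured, each on 1 row of the table. The arrays held RNA of regulatory T cells (Tregs) isolated from the lamina propria of tumour-bearing mouse colon. The mice (Foxp3-RFP x GPR15-GFP) report Foxp3, the master factor of Tregs, in red and GPR15, which homes T cells to the colon, in green. Colorectal cancer had been induced by azoxymethane, a mutagen, with dextran sulfate sodium, an agent that injures the colon lining. Red cells stained for CD4 were sorted into a GPR15-GFP+ and a GPR15-GFP- fraction, with 3 arrays of each, numbered 1, 5 and 6 in both. The fractions thus shared tumour, treatment and both reporters, and were parted by green fluorescence alone. The labels gave no age and did not say whether a sample was 1 animal or a pool, so p-values measure the spread between these samples only.

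Glucose enters a T cell through facilitative transporters and is trapped by hexokinase as glucose 6-phosphate. Phosphofructokinase makes the committed step, aldolase splits the sugar, phosphoglycerate kinase and pyruvate kinase yield ATP, and lactate dehydrogenase turns pyruvate into lactate. Activated effector T cells are known for high glycolytic flux, and Tregs for a greater use of oxidative metabolism. Hypoxia-inducible factor 1 (HIF-1), which binds DNA at a short core motif, is a well known activator of many of these genes.

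Values are log2 values from the robust multi-array average (RMA), which includes a normalization between arrays. The deposited arrays still differed in median, from 6.49 to 6.64. A difference is the mean of samples labelled GPR15+ minus that of samples labelled GPR15-. A gene was called where the limma p, adjusted by Benjamini-Hochberg over all genes, was below 0.05. Of 19494 genes 0 were called, or 0%, and 0 of the 10 genes were called (limma adjusted p from 0.773 to 0.942). At an unadjusted p under 0.05, 544 genes were higher and 670 lower. That balance turned with the scaling: 796 were higher and 421 lower with arrays centred on their medians, 609 and 474 after quantile normalization, and 735 and 407 after cyclic loess. A fit with array weights, described with Hk1 below, was the only alternative that called any gene. Gpr15, the gene behind the sort, had a lower mean in the fraction labelled GPR15+: 8.12 ± 0.23 (SD, n = 3), as compared with 8.78 ± 0.31 (SD, n = 3) in the other. That direction is opposite to the one the labels name. The sort was by green fluorescence of a reporter, not by this transcript, and the reason for the direction was not tested. Every direction below thus rests on the labels alone. The T cell genes Cd3d, at 11.4 to 12.1, and Ctla4, at 10.4 to 11.7, were bright on every array, while Il2ra, which encodes the interleukin-2 receptor chain used to mark Tregs, lay at 4.64 to 5.42. Foxp3 was not analysed here. The arrays numbered 1 had a narrower spread of values, with an SD of 1.63 against 1.74 to 1.87 on the other 4.

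The 10 genes were chosen with earlier results of these data known, so their shares beside those of all genes are a description, not a test. In samples labelled GPR15+, 9 of the 10 genes had a difference above 0, against 40.8% of all genes. The median difference of the 10 was 0.20, and that of all genes was -0.06. With arrays centred on their medians, 51.8% of all genes lay above 0, and 9 of the 10 did. Quantile normalization left 7 of the 10 above 0, with Pfkp and Ldha joining Pfkl below, against 46.4% of all genes. Without both arrays numbered 1 the count was also 7, with Slc2a3 and Hk2 joining Pfkl below, against 40.7% of all genes. The share of all genes was 47.9% once the dimmest 40% of genes, which include Hk1 and Slc2a3, were left out. The difference was above 0 in each pair of equal number for 5 of the 10 genes (Slc2a1, Hk1, Pgk1, Pkm and Ldha), against 13.4% of all genes, and below 0 in each for Pfkl, against 23.6% of all genes. The arrays of both fractions did not overlap for 1 gene, Slc2a1, which was higher. Of all genes, 4.12% were higher without overlap and 9.17% lower without overlap. An unadjusted p under 0.05 was reached by Hk1 alone, on the higher side, against 2.79% of all genes on that side and 3.44% on the lower side. By number, the median difference of the 10 genes was 0.44, 0.14 and -0.04 for 1, 5 and 6, beside -0.03, -0.08 and -0.06 over all genes. The excess over all genes was thus greatest in the pair numbered 1.

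**Figure D1:**
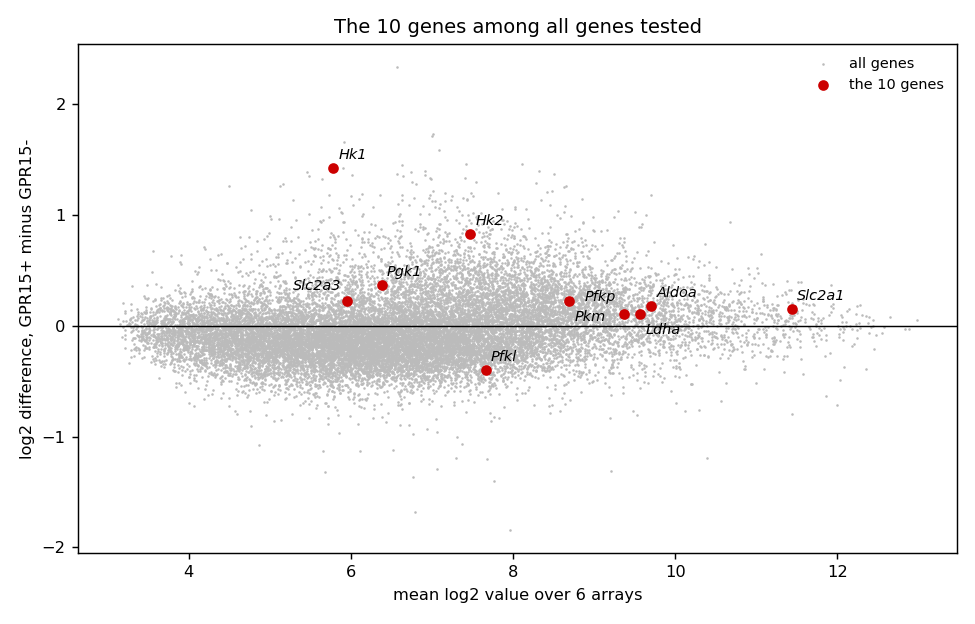
Each grey point is 1 of 19494 genes, placed by its mean log2 value over 6 arrays and its log2 difference, samples labelled GPR15+ minus samples labelled GPR15-; red points are the 10 genes. Hk1 at 1.42 and Hk2 at 0.83 lay farthest above 0, and Pfkl at -0.40 was the only one below.

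The promoter windows of the genes that the comparison turned on are shown here: Slc2a1, whose fractions did not overlap; Hk1 and Hk2, whose balance is compared below; and Pfkl, the only gene with a difference below 0. Each is the 250 bases before a RefSeq start in GRCm38.p6, written 5′ to 3′ on the gene's strand. Capitals mark each match to the ACGTG form of the HIF-1 core or its reverse complement CACGT. The GCGTG form of the core was not searched or marked.
Slc2a1, chr4:119108495-119108744, plus strand: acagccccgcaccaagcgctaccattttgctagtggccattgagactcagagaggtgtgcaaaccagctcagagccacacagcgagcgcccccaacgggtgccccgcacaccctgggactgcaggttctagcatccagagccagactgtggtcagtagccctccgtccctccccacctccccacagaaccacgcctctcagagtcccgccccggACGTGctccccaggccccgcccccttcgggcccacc
Hk1 upstream start, chr10:62379909-62380158, minus strand: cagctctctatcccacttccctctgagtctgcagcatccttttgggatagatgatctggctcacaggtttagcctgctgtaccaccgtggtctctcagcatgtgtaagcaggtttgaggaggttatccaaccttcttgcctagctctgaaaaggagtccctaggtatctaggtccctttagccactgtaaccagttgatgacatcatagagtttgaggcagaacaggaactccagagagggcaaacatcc
Hk1 downstream start, chr10:62340422-62340671, minus strand: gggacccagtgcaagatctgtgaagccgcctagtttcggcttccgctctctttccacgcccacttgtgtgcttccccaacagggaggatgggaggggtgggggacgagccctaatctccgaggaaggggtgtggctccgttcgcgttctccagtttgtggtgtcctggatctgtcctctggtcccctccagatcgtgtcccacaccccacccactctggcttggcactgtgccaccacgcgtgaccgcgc
Hk2, chr6:82774455-82774704, minus strand: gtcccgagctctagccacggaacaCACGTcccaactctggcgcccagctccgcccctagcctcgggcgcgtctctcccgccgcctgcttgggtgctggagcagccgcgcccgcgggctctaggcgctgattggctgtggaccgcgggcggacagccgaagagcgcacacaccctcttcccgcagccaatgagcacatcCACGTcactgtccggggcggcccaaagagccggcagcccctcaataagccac
Pfkl, chr10:78009808-78010057, minus strand: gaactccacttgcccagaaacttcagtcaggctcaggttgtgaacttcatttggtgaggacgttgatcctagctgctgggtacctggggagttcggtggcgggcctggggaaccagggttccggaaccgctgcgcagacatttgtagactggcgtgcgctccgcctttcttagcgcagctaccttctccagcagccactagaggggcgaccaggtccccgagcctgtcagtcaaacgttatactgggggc

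The RefSeq table held 14 such windows for 9 of the 10 genes. Slc2a3 had no window in it. The ACGTG form of the core was found on either strand in 7 of the 14 windows. It was found in 16.6% of 32851 windows of all genes, which were not matched for GC content. By gene it was found in 6 of the 9, and no share by gene was made over all genes. ACGTG lies within the E-box CACGTG, which was in 1 of the 14 windows and in 6.02% of all windows. GC content was 49.6% to 69.6% in the 14 windows, with a median of 52.4% over all windows, and a pair of overlapping Aldoa windows shared 1 match. Hk2 had 2 matches to ACGTG, Slc2a1 had 1, and both Hk1 windows and the Pfkl window had 0. Of the windows shown, those of Slc2a1, Pfkl and the Hk1 downstream start hold the unsearched GCGTG on either strand. These counts thus do not part genes with a HIF-1 core from genes without. The Ldha window at its upstream start had the most of the 14, with 3. These are matches of letters in a window, not measured binding.

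Slc2a1 encodes GLUT1, the main glucose importer of activated T cells. Its values were 11.32, 11.43 and 11.34 in the samples labelled GPR15- numbered 1, 5 and 6, and 11.54, 11.56 and 11.44 in those labelled GPR15+. The fractions did not overlap, though the gap between GPR15- replicate 5 and GPR15+ replicate 6 was small. The difference was 0.15 ± 0.15 (SE), or 1.11-fold, with a 95% interval of -0.20 to 0.50 (limma adjusted p = 0.849). It was the steadiest of the 10 genes, with a range of 0.25 over the 6 arrays, and its difference was 0.22, 0.13 and 0.10 by number.

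Slc2a3 encodes GLUT3, a transporter of high glucose affinity. It lay at 6.04, 5.83 and 5.66 in samples labelled GPR15- and at 7.17, 5.61 and 5.43 in those labelled GPR15+. GPR15+ replicate 1 stood above the other 5 arrays, while GPR15+ replicates 5 and 6 lay below every sample labelled GPR15-. The difference of 0.23 ± 0.43 (SE) was 1.13 in the pair numbered 1 and -0.22 and -0.23 in the pairs numbered 5 and 6. Without GPR15+ replicate 1 it was -0.32 (limma adjusted p = 0.294), so its direction rested on that array.

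Hexokinase 1 is the broadly expressed form of the enzyme. Hk1 had the greatest difference of the 10 genes. Its values in samples labelled GPR15- were 4.88, 4.21 and 6.12, and in samples labelled GPR15+ they were 5.29, 7.03 and 7.15. GPR15+ replicates 5 and 6 lay above all samples labelled GPR15-, but GPR15+ replicate 1 lay below GPR15- replicate 6, so the fractions overlapped. The difference was 1.42 ± 0.61 (SE), or 2.68-fold, with a 95% interval of 0.02 to 2.83, and limma gave an unadjusted p of 0.0480 and an adjusted p of 0.773. By number it was 0.42, 2.83 and 1.03. With the number as a block the SE was 0.41, and limma gave an unadjusted p of 0.00927 and an adjusted p of 0.332. In that fit 2411 of all genes had an unadjusted limma p under 0.05. With weights estimated for each array the adjusted p from limma was 0.0342 at a difference of 1.85. That fit called 2174 genes and gave GPR15+ replicate 6 a weight of 6.56 against 0.191 for GPR15+ replicate 1. The estimation of these weights stopped short of its tolerance. Hk1 and Slc2a3 were among the 40% of genes with the lowest mean, for which no detection call was used here.

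Hexokinase 2 is the form that T cells induce on activation. Hk2 lay at 6.06, 7.59 and 7.51 in samples labelled GPR15- and at 8.62, 7.91 and 7.13 in those labelled GPR15+. Both extremes came from the arrays numbered 1, and GPR15+ replicate 6 lay below GPR15- replicates 5 and 6. The difference was 0.83 ± 0.49 (SE), or 1.78-fold, with a 95% interval of -0.31 to 1.98 (limma adjusted p = 0.773). By number it was 2.56, 0.31 and -0.38. Dropping GPR15- replicate 1 left 0.33, dropping GPR15+ replicate 1 left 0.46 and dropping both left -0.034, so most of it lay in that pair.

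The balance of both hexokinase rows was compared as Hk1 minus Hk2 on each array. It was -1.19, -3.38 and -1.39 in samples labelled GPR15- and -3.33, -0.87 and 0.01 in those labelled GPR15+. The fractions overlapped over most of their range. The mean was -1.99 ± 1.21 (SD, n = 3) in samples labelled GPR15- and -1.40 ± 1.73 (SD, n = 3) in those labelled GPR15+, a difference of 0.59 that did not pass (exact permutation test over the arrays, two-sided p = 0.5, where the smallest possible is 0.1). Within numbers the balance moved toward Hk2 by -2.15 in pair 1 and toward Hk1 by 2.51 and 1.41 in pairs 5 and 6. A paired sign-flip test with the number as a replicate block gave 0.59 with an exact two-sided p of 0.75, where 3 pairs allow no p below 0.25. Leaving out 1 array moved the difference to between -0.12 when GPR15+ replicate 6 was dropped and 1.56 when GPR15+ replicate 1 was, and dropping GPR15- replicate 5 gave -0.11. Without both arrays numbered 1 it was 1.96. In pairs 5 and 6 the larger difference was thus that of Hk1, and in pair 1 that of Hk2.

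**Figure D2:**
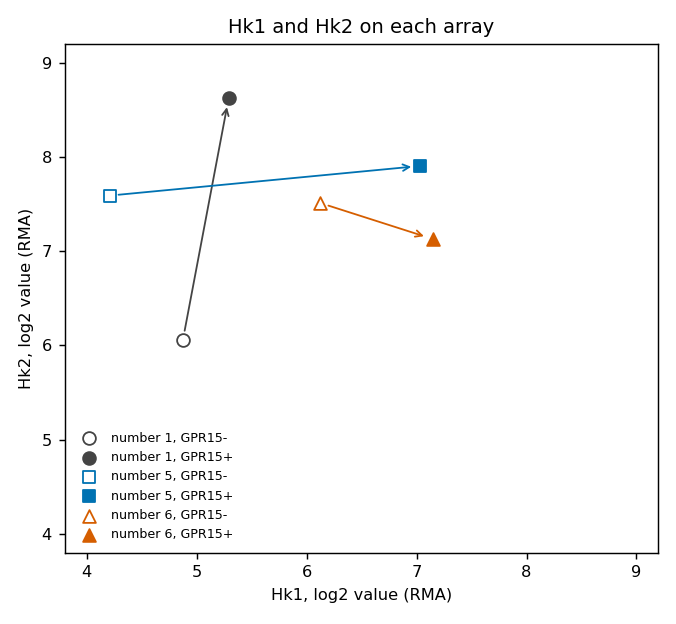
Each point is 1 array, placed by its log2 values of Hk1 and Hk2; open symbols are samples labelled GPR15-, filled ones samples labelled GPR15+, and arrows join equal numbers. The arrow of number 1 runs along Hk2 (2.56), and those of 5 and 6 run along Hk1 (2.83 and 1.03).

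Over the 6 arrays the values of Hk1 were most like those of Asxl2, Wdr1 and Zfp935, at Pearson r of 0.989, 0.987 and 0.987, among the 9747 genes above the median level. Those of Hk2 were most like Mark4, Naip5 and Hspa14, at 0.995, 0.987 and 0.980. These are the highest of many correlations over 6 arrays that share preparation and pairs, and are given as a description. No gene was in both sets, and none could be: Hk1 and Hk2 correlated at only 0.122, which allows no gene so close to both.

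Pfkp and Pfkl encode the platelet and liver forms of phosphofructokinase, and their differences lay on either side of 0. Pfkp lay at 9.17, 9.22 and 9.57 in samples labelled GPR15- and at 9.03, 10.07 and 9.18 in those labelled GPR15+. GPR15+ replicate 5 stood above the rest, and the other 4 arrays apart from GPR15- replicate 6 lay within a narrow band. The difference was 0.11 ± 0.29 (SE; limma adjusted p = 0.942), with -0.13, 0.85 and -0.39 by number. It was -0.21 without GPR15+ replicate 5 and also below 0, at -0.0058, after quantile normalization.

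Pfkl lay at 7.62, 7.69 and 8.28 in samples labelled GPR15- and at 7.24, 7.42 and 7.72 in those labelled GPR15+. GPR15+ replicates 1 and 5 were below every sample labelled GPR15-, and GPR15+ replicate 6 lay within their range. The difference was -0.40 ± 0.23 (SE), or 1.32-fold lower, with a 95% interval of -0.94 to 0.14 (limma adjusted p = 0.773). It was below 0 by number, at -0.38, -0.27 and -0.56. With the number as a block limma gave an unadjusted p of 0.036 and an adjusted p of 0.386. The number 6 gave the highest value in both fractions. Pfkl was the only one of the 10 genes below 0 in each pair, and its difference was -0.19 without GPR15- replicate 6.

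Aldoa encodes the aldolase that splits fructose 1,6-bisphosphate. Its values were 9.28, 9.67 and 9.89 in samples labelled GPR15- and 9.78, 9.84 and 9.75 in samples labelled GPR15+. The latter lay close together, within the upper part of the GPR15- range. The difference of 0.18 ± 0.19 (SE; limma adjusted p = 0.863) was 0.49, 0.17 and -0.13 by number, and 0.01 without GPR15- replicate 1. Pkm encodes the pyruvate kinase of T cells, which makes pyruvate in the last step of glycolysis. It lay at 8.20, 8.78 and 8.75 in samples labelled GPR15- and at 8.66, 8.94 and 8.81 in those labelled GPR15+. GPR15- replicate 1 was the lowest array, as it was for Aldoa and Hk2. The difference was 0.23 ± 0.21 (SE; limma adjusted p = 0.832), with 0.46, 0.16 and 0.06 by number, and 0.04 without GPR15- replicate 1.

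Pgk1 encodes the kinase of the first ATP-yielding step. It lay at 6.50, 6.02 and 6.05 in samples labelled GPR15- and at 7.16, 6.11 and 6.43 in those labelled GPR15+. The arrays numbered 1 were the highest of each fraction. Its difference of 0.37 ± 0.29 (SE), or 1.29-fold, had a 95% interval of -0.30 to 1.04 (limma adjusted p = 0.809) and was 0.65, 0.09 and 0.38 by number. Without GPR15+ replicate 1 it was 0.07. Ldha, which makes lactate, lay at 9.91, 9.41 and 9.21 in samples labelled GPR15- and at 9.97, 9.45 and 9.43 in those labelled GPR15+. Both arrays numbered 1 lay above the other 4, and within each number the fractions lay close together. The difference was 0.11 ± 0.25 (SE; limma adjusted p = 0.931), with a 95% interval of -0.46 to 0.68. It was 0.06, 0.04 and 0.22 by number, -0.018 after quantile normalization, -0.069 without GPR15+ replicate 1 and -0.041 if GPR15- replicate 6 was dropped.

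**Figure D3:**
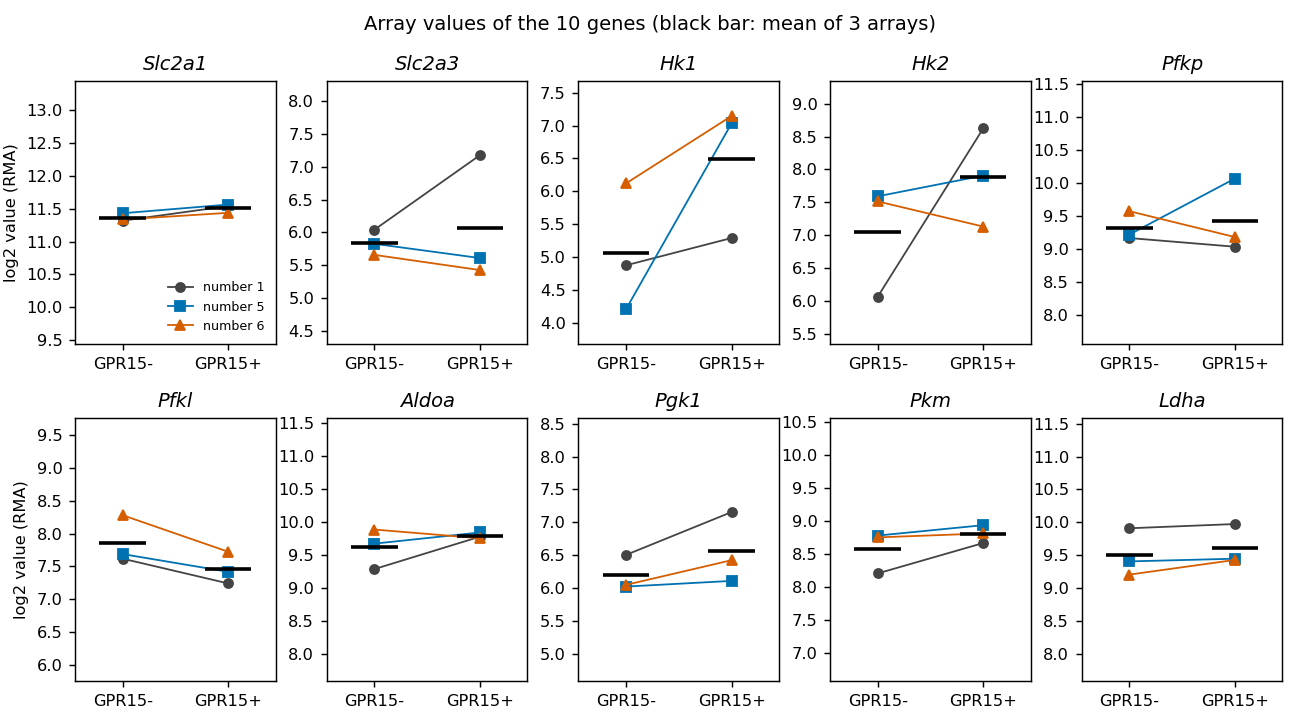
Log2 values of the 10 genes on each array, by labelled fraction; lines join equal numbers, black bars are means of 3 arrays, and each vertical axis spans 4 log2 units around its gene's values. Slc2a1 hardly varied, Hk1 and Hk2 spanned 2.94 and 2.56, and the arrays numbered 1 were highest for Slc2a3, Pgk1 and Ldha.

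Several of the genes varied with the number on the sample. Slc2a3, Pgk1 and Ldha each had their highest value on GPR15+ replicate 1 and their next highest on GPR15- replicate 1. Over the 6 arrays their Pearson correlations with each other were 0.859, 0.847 and 0.790, as a description of arrays that share pairs. Aldoa and Pkm correlated at 0.903 and ran against Ldha, at -0.591 and -0.662. The median range over the 6 arrays was 1.04 for the 10 genes and 0.72 for all genes.

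**Figure D4:**
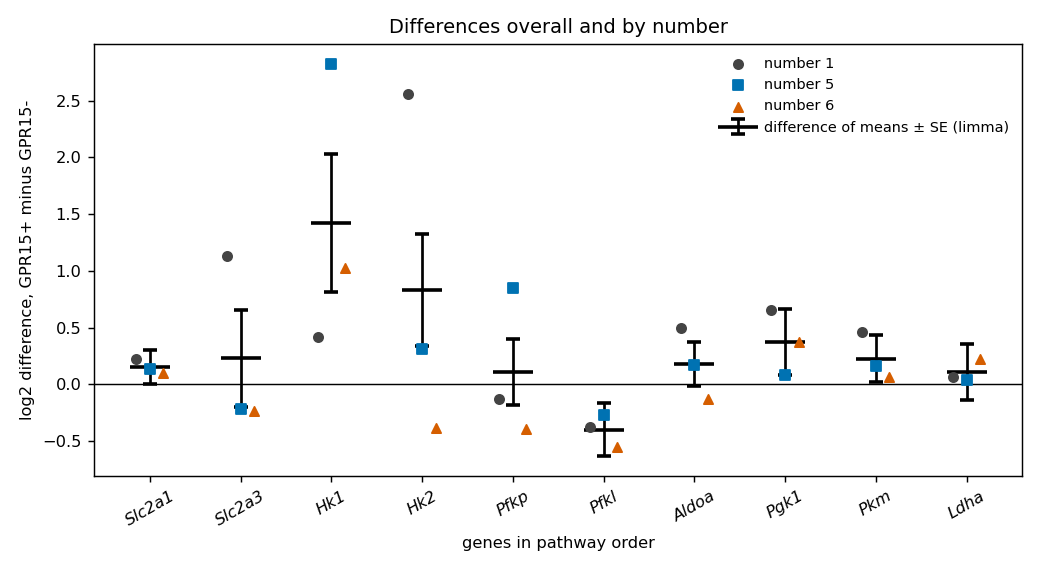
Log2 difference, samples labelled GPR15+ minus samples labelled GPR15-, of each gene in pathway order: black bars are the difference of means with limma's SE, and symbols the difference within each number. For 5 genes all symbols lie above 0 and for Pfkl all lie below, while Slc2a3, Hk2, Pfkp and Aldoa have symbols on both sides.

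The rest of the pathway was read from lists drawn up with earlier results of these data known, and 0 of their 75 measured genes were called in either direction (limma), while 2 were higher and 5 lower at an unadjusted p under 0.05, beside 2.79% and 3.44% of all genes. Of 15 measured other enzymes of glycolysis, 8 lay above 0 and 7 below, with a median of 0.07. The enolase Eno3 (-0.39) and the phosphoglycerate mutase Pgam2 (-0.50), both known as muscle forms, had an unadjusted p under 0.05 and lay lower without overlap between fractions, as did 9.17% of all genes, and Tpi1 had the greatest difference above 0, at 0.32 ± 0.70 (SE). The values of Pgam2 were 7.15, 7.30 and 6.89 in samples labelled GPR15- and 6.72, 6.47 and 6.65 in those labelled GPR15+. Of 12 other glucose and lactate transporters, 5 lay above 0 and 7 below, with a median of -0.12, between Slc2a9 at 0.26 and Slc2a10 at -0.53. Of 5 measured pentose phosphate genes, 2 lay above 0, with Taldo1 at 0.29 and Pgd at -0.31 the farthest apart.

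Among 15 measured regulators of flux, 7 lay above 0 and 8 below, and the farthest above was Pdk1, a kinase that shuts pyruvate out of mitochondrial oxidation. Pdk1 lay at 5.22, 4.73 and 4.98 in samples labelled GPR15- and at 5.00, 6.14 and 6.82 in those labelled GPR15+. As with Hk1, GPR15+ replicates 5 and 6 lay above all samples labelled GPR15- and GPR15+ replicate 1 did not. The difference was 1.01 ± 0.42 (SE; limma adjusted p = 0.773). Pfkfb4, which makes an activator of phosphofructokinase, differed by -0.55 ± 0.18 (SE). It was lower without overlap between fractions, as were 9.17% of all genes. Pdp1, a phosphatase that opposes Pdk1, differed by -0.73 ± 0.51 (SE).

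Of 16 genes for transcription factors and signalling around glycolysis, 11 lay above 0. Egln3, an oxygen-dependent hydroxylase that marks HIF for destruction, lay at 9.46, 9.74 and 9.65 in samples labelled GPR15- and at 8.51, 9.06 and 8.77 in those labelled GPR15+. The fractions did not overlap for Egln3, as for 9.17% of all genes on the lower side. Its difference was -0.84 ± 0.19 (SE; limma adjusted p = 0.773). Vhl, which tags hydroxylated HIF, differed by 0.59 ± 0.31 (SE). Of 12 HIF-1 targets outside glycolysis, 6 lay above 0 and 6 below, with a median of 0.03. The collagen hydroxylase P4ha1 lay at 8.04, 8.11 and 7.69 in samples labelled GPR15- and at 8.18, 8.92 and 8.75 in those labelled GPR15+. It was higher without overlap, as were 4.12% of all genes, with a difference of 0.67 ± 0.24 (SE; limma adjusted p = 0.773). The histone demethylase Kdm3a differed by 0.92 ± 0.66 (SE) and P4ha2 by -0.35 ± 0.28 (SE).

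**Figure D5:**
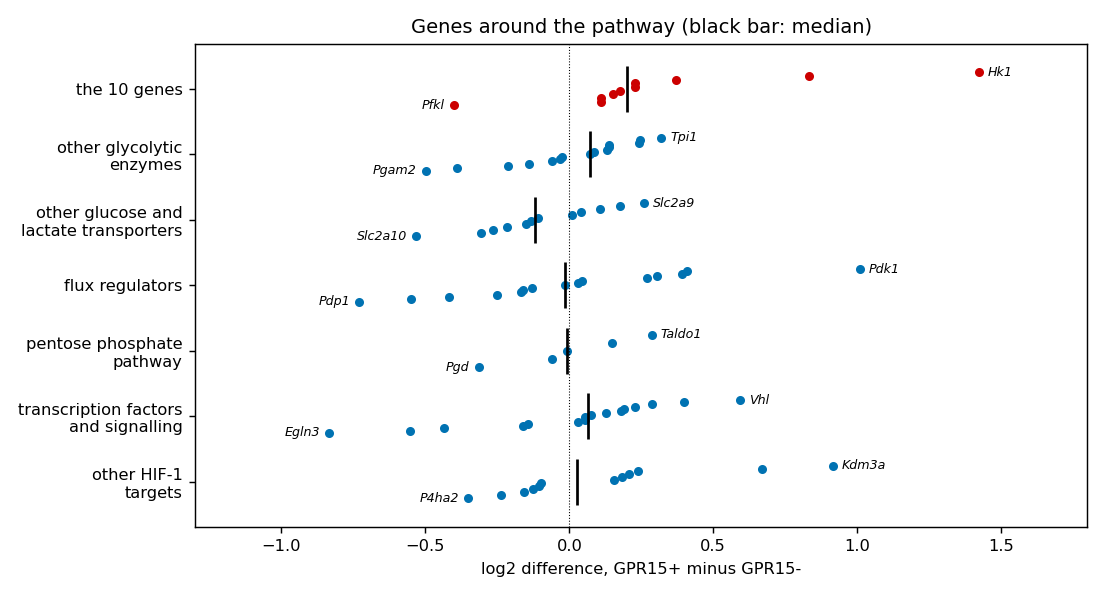
Log2 differences, samples labelled GPR15+ minus samples labelled GPR15-, of the 10 genes (red) and of 6 lists around the pathway (blue), 1 point a gene; black bars are medians and the outermost genes are named. Medians of the lists lay between -0.12 and 0.07, against 0.20 for the 10 genes.

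Markers of other cells were measured beside these genes, as the mean log2 value of a list on each array. Mean levels of 5 B and plasma cell genes were 5.46 to 5.74 in samples labelled GPR15+ and 5.86 to 6.18 in those labelled GPR15-, without overlap. Among all genes taken singly, 9.17% lay lower without overlap. Of the 5, Ms4a1 went the other way, with a difference of 0.13. Jchain spread most, at 6.79, 7.06 and 4.81 in samples labelled GPR15- and 5.09, 5.46 and 4.73 in those labelled GPR15+. For 5 neutrophil genes the levels were 5.22 to 5.58 against 5.52 to 5.72, for 8 macrophage and monocyte genes 5.67 to 6.22 against 6.03 to 6.30, and for 10 epithelial genes 6.29 to 6.67 against 6.61 to 6.71. The 7 stromal and endothelial genes gave 6.48 to 6.67 against 6.56 to 6.67, and the 6 CD8 T and NK cell genes 6.52 to 6.68 against 6.32 to 6.84. The 2 measured erythroid genes gave 7.29 to 7.56 against 7.63 to 7.83, also without overlap. The 6 T cell genes lay at 10.6 to 10.9 against 10.4 to 10.8, and the 5 Treg genes at 9.62 to 10.1 against 9.75 to 10.2. No gene of these lists was called, and their part in the values above was not tested. Apart from the erythroid genes, the lists of other cells lay near or below the array medians of 6.49 to 6.64. No detection call was used, and the lists were not compared under other scalings. Fewer cells of a type, less RNA per cell and the scaling of dim values cannot be told apart in such samples.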

How the data were processed

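Gene expression was measured on 6 arrays of sorted mouse Tregs, labelled with biotin from 2 to 10 ng of RNA per the labels. The authors deposited log2 values made with RMA (background correction, normalization between arrays and 1 value per transcript cluster), per the submitters' processing notes; software, array name and genome build are not given in the sources used here. Of 22142 rows, 19527 had 1 gene symbol, 0 several and 2615 none. For 33 genes with several rows, none of them among the 10 genes, the row with the highest mean was used.

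Groups and numbers came from the titles. All 19494 genes were fitted by lmFit and eBayes of limma 3.58.1 (R 4.3.3) without a block; p-values were adjusted by Benjamini-Hochberg over all of them, at a threshold of 0.05. The fit was tested on simulated data in which 200 genes were given a shift larger than any difference of the 10 genes. The noise was independent and without pairs, so that test does not bear on differences of the size reported here. Deviations from group means correlated at 0.567, 0.381 and 0.319 between samples of equal number, all above 0.1. GPR15+ replicate 5 with GPR15- replicate 6 (0.315) and GPR15+ replicate 6 with GPR15- replicate 5 (0.213) were also above it, so the correlations set number 1 apart and do not tell 5 from 6. Differences by number and the block treat equal numbers as pairs. The main fit does not, so its SEs, intervals and p-values take no account of pairing.

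The 10 genes, the lists and the markers were chosen with earlier results of these data known. All 10 are named; from each list around the pathway, genes with an unadjusted p under 0.05 and the farthest on either side of 0; for Hk1 and Hk2, the 3 genes of highest Pearson correlation; and Gpr15, Ptprc (difference 0.15) and Cd4 (0.14) as checks. Cd3d, Ctla4 and Il2ra were named after their values were seen. Listed genes without a row were not analysed here.

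Alternatives were other normalizations, a filter on the dimmest 40% of genes, the number as a block, array weights, an intensity trend in the variance, all rows of a gene, and arrays left out. Counts of genes at an unadjusted p and of the 10 genes above 0 were added after the data were seen.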

Additional observations from a re-analysis of the deposited data

How the results depend on the processing

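The count of 0 genes called by limma held under every alternative except array weights, which called 2174, and the cause was not tested. Genes at an unadjusted p under 0.05 numbered 1214, and with 1 array left out between 668 (GPR15+ replicate 6 dropped) and 4351 (GPR15+ replicate 1 dropped), 4101 without both arrays numbered 1, 713 without the dimmest 40% of genes, 2411 with the replicate block, 2293 with the block on centred arrays and 6534 with array weights; the cause was not tested beyond fewer genes or arrays in the respective fits. Of 158 values of the 10 genes under alternatives, 11 lay on the other side of 0. Some of the 158 could not differ from the main value. The replicate block, the intensity trend, the filter on dim genes and the mean of all rows leave the difference of these genes unchanged. Likewise, the block on centred arrays repeats the value of the centred arrays. For Hk2 these were -0.034 without both arrays numbered 1, and -0.090 under array weights. Slc2a3 gave -0.22 and -0.29 in these fits, and -0.32 to 0.55 with 1 array left out. Pfkp gave -0.0058 after quantile normalization and -0.12 with array weights, and -0.21 to 0.31 with 1 array left out. Ldha gave -0.018 after quantile normalization and -0.069 to 0.31 with 1 array left out. Hk1 minus Hk2 gave -0.12 to 1.56 with 1 array left out. Slc2a1, Hk1, Pfkl, Aldoa, Pgk1 and Pkm kept their direction under all alternatives that could move a difference. Hk1, with array weights, was the only call. The replicate block changed no call. The median of the 10 genes went from 0.11 (without both arrays numbered 1) to 0.28 (centred arrays). Signal over background was not measured here, which limits Hk1 and Slc2a3 most.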
